A study of Mus musculus with 21 samples.

Results

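Of the 52636 genes in the table, 5 are described here across 7 treatments of mouse lung fibroblasts: Hmga2, Abcb1a, Prg4, Dhrs9 and Add2. They were selected on their measured levels, being among the genes most raised in the libraries treated with TGFb1 and TNF together. Their levels in those libraries and in the TGFb1 libraries are therefore given as a description, with no test. All 5 passed the filter on low counts that 16197 genes passed, applied to all 21 libraries together. Contrasts between the other groups were tested, and neither of those 2 groups was compared in them. The filter, the scaling between libraries and the estimate of spread behind these tests came from all 21 libraries, those 2 groups included. The rule of the choice names no reference group, and TGFb1 was taken as that reference. If it was another group, tested contrasts that hold that group share libraries with the choice.

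The 5 genes act in different parts of the cell. Hmga2 encodes a small chromatin protein that binds AT-rich DNA through AT-hooks, is abundant in embryonic and dividing mesenchymal cells, and is repressed by let-7 microRNAs. Abcb1a encodes one of the mouse P-glycoproteins, ATP-driven pumps of the plasma membrane that export many lipophilic drugs. Prg4 encodes lubricin, a secreted mucin-like proteoglycan that coats joint surfaces and binds hyaluronan. Dhrs9 encodes a short-chain dehydrogenase of the endoplasmic reticulum that acts on retinols and hydroxysteroids. Add2 encodes beta-adducin, which caps actin filaments and joins spectrin to actin under the membrane and is best known from red cells and neurons. TNF and IL1b are inflammatory cytokines whose receptors switch on NF-kB and AP-1 factors, and TGFb1 is the cytokine that turns fibroblasts towards matrix-making myofibroblasts.

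The cells were labelled Ly6C+/Sca-1+ fibroblasts and were treated in culture. The groups, each with 3 libraries of total RNA from a stranded kit, were DMSO (the solvent), CHIR, TGFb1, TGFb1 + DMSO, TGFb1 + CHIR, TGFb1 + IL1b and TGFb1 + TNF. TNF and IL1b were therefore present only together with TGFb1, and no group had either alone. CHIR is given by that short name alone; the name is commonly used for inhibitors of the kinase GSK3. The labels give no strain, dose, time, sex or age, and they do not say whether libraries of a group came from separate cultures or animals, so the p-values measure only the spread between these libraries.

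Library totals ran from 19796379 to 29276382 counts, and no pair of libraries within a group agreed within sampling noise, with a mean chi-square per gene of 3.11 to 9.28 over 21 pairs. Fibroblast markers (Col1a1, Col1a2, Col3a1, Pdgfra, Dcn, Lum and Thy1) had counts in every group. Their summed level, in counts per 1000000 counts of the library (CPM), ran from 23820 in TGFb1 + TNF to 75400 in TGFb1 + CHIR. The collagen genes supplied most of it. Pdgfra was at 417 CPM in TGFb1 and 78.7 CPM in TGFb1 + TNF. Thy1 was at 78.8 and 40.8 CPM, and Dcn at 220.5 and 546 CPM, in the same groups. Lum was at 9.67 CPM in DMSO and 0.382 CPM in TGFb1, and had 2 counts in TGFb1 + TNF. The summed level of Ly6a and Ly6c1, the genes of the labelled surface proteins, was 200.3 CPM in DMSO, 109 CPM in TGFb1, 33.7 CPM in TGFb1 + TNF and 8.23 CPM in TGFb1 + CHIR. Epithelial markers summed to at most 0.451 CPM in any group mean, and immune markers to between 7.09 and 19.8 CPM with Ptprc at 0 in the TGFb1, TGFb1 + IL1b and TGFb1 + TNF groups. Endothelial markers, like the 5 genes, were higher in TGFb1 + TNF than in TGFb1. Their summed mean was 5.37 CPM in TGFb1, 5.73 CPM in TGFb1 + IL1b and 14.5 CPM in TGFb1 + TNF, and it was highest, at 23.0 CPM, in TGFb1 + CHIR. Cdh5 was at 0.260 CPM in TGFb1 and 4.65 CPM in TGFb1 + TNF and Kdr at 3.13 and 6.48 CPM, while Pecam1 was at 0.538 and 0.164 CPM and Cldn5 at 0 in both. Mural markers summed to 1109 CPM in TGFb1 and 532 CPM in TGFb1 + TNF, although Cspg4 among them was at 111 and 279 CPM. The part of such cells in the levels of the 5 genes was not tested. In such bulk samples, fewer cells of a type and less RNA per cell cannot be told apart.

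The promoters of 4 of the 5 genes are shown because these genes were high together in the TNF libraries, and the letters let their start sites be compared. Each window holds 300 bases, 250 before to 50 after the start of the gene in RefSeq on GRCm38.p6, and is written 5′ to 3′ along the gene's own strand. The windows are chr10:120476420-120476719 (minus strand) for Hmga2, chr5:8566841-8567140 (plus strand) for Abcb1a, chr2:69380212-69380511 (plus strand) for Dhrs9 and chr6:86028431-86028730 (plus strand) for Add2. Capitals mark matches to any of 4 motifs, searched on both strands: the frame of the kappaB site that NF-kB binds (GGG, any 5 bases, CC), TGANTCA (AP-1), CTTTGA (the core of the TCF/LEF site) and TATAAA (the TATA box). Prg4 had no entry.
Hmga2: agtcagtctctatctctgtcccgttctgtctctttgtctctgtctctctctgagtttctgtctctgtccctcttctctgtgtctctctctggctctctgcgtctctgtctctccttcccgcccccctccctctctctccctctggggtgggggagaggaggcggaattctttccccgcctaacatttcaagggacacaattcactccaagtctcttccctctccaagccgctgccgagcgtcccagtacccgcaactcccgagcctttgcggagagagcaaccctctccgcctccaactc
Abcb1a: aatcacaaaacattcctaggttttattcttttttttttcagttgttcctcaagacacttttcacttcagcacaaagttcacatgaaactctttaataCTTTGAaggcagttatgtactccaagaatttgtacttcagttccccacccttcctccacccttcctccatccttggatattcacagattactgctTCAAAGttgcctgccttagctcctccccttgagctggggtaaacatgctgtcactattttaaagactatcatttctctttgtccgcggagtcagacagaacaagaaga
Dhrs9: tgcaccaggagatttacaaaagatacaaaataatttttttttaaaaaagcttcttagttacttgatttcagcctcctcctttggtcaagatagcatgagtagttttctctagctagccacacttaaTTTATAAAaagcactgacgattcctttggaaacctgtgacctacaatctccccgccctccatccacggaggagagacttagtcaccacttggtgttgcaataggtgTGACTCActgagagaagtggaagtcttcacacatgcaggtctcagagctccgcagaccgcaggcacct
Add2: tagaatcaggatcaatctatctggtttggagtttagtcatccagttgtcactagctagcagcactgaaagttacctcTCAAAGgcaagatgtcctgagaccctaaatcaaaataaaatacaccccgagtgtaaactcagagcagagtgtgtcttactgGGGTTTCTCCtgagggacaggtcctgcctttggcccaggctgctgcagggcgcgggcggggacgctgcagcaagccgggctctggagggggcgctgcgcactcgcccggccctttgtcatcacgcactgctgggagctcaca
The Add2 window held GGGTTTCTCC, starting at -92 from the start site, and 1 CTTTGA on the minus strand at -173. The Dhrs9 window held TGACTCA at -18, and a pair of overlapping TATAAA matches on opposite strands at -122 and -124. The Abcb1a window held CTTTGA at -153 on the plus strand and at -58 on the minus strand. The Hmga2 window held none of the 4 motifs, and 69.0% of its bases were C or T. Of 32851 promoter windows of the same length, 50.8% held the kappaB frame, 7.81% TGANTCA, 16.0% CTTTGA and 13.6% TATAAA. A match is a description of the letters and not a measured site. The RefSeq start of Abcb1a lies 93.0 kb upstream of the start of the gene in GENCODE M21, and these counts do not say which start was used.

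**Figure D1:**
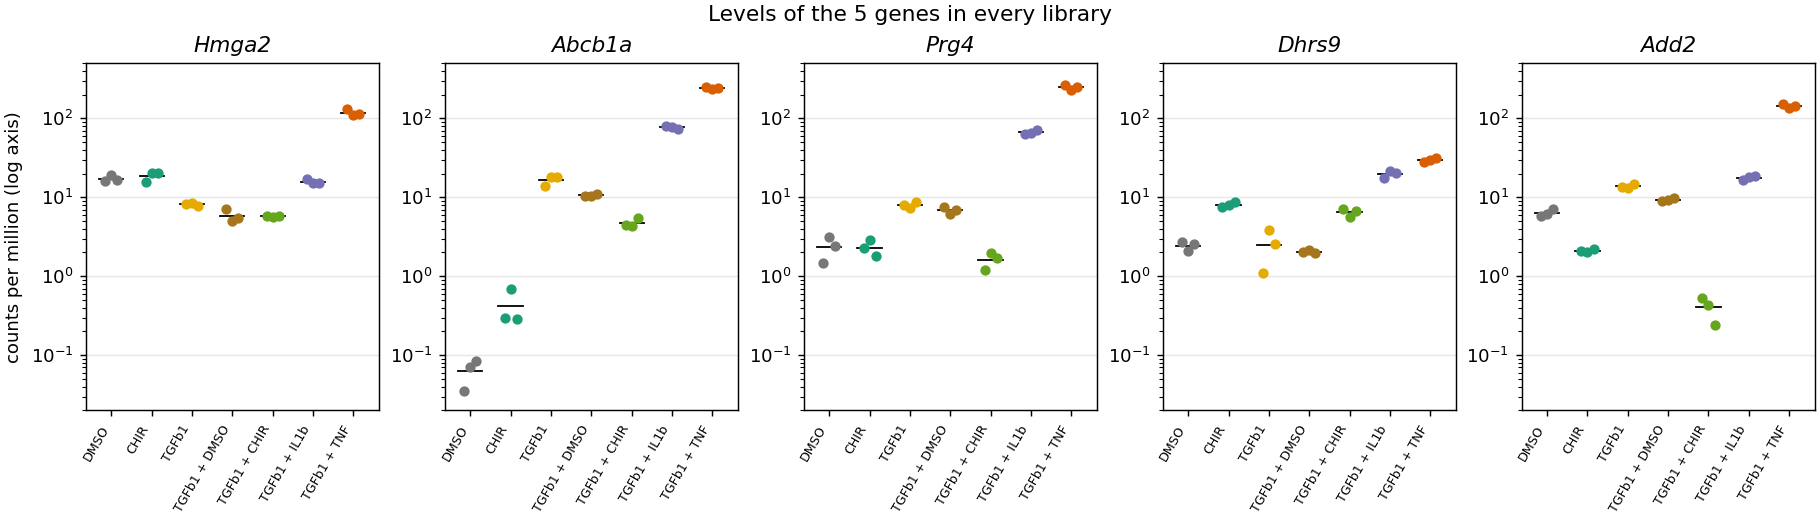
Level of each of the 5 genes in CPM (log axis) in the 7 groups; each point is 1 library and each bar the mean of 3. The 3 TGFb1 + TNF libraries lie above all 18 others for every gene, and TGFb1 + IL1b is the next highest group for all but Hmga2.

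Hmga2 (ENSMUSG00000056758, GRCm38 chr10:120361275-120476469, minus strand) was lowest where TGFb1 was given without a second cytokine and highest where TNF was added. It was at 16.1, 19.1 and 16.5 CPM in DMSO, at 15.6, 20.4 and 20.1 CPM in CHIR and at 8.26, 8.40 and 7.73 CPM in TGFb1. It was at 7.02, 5.06 and 5.44 CPM in TGFb1 + DMSO, at 5.83, 5.67 and 5.78 CPM in TGFb1 + CHIR, at 16.9, 15.2 and 15.1 CPM in TGFb1 + IL1b and at 131, 109 and 113 CPM in TGFb1 + TNF. The DMSO, CHIR and TGFb1 + IL1b libraries overlapped, the TGFb1 + DMSO and TGFb1 + CHIR libraries overlapped below the TGFb1 ones, and the TNF libraries stood apart. The TNF mean was 118 ± 11.7 CPM (SD, n = 3), 14.5 times that in TGFb1, 7.47 times that in TGFb1 + IL1b and 6.83 times that in DMSO. Hmga2 was thus the gene of the 5 whose TNF level lay closest to its level in the solvent alone.

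Hmga2 fell with TGFb1 and rose with IL1b, whose libraries overlapped those of DMSO. TGFb1 + DMSO was lower than DMSO by a log2 fold change of -1.51 ± 0.112 (SE; edgeR adjusted p = 9.36e-17), and TGFb1 + CHIR was lower than CHIR by -1.65 ± 0.115 (edgeR adjusted p = 9.95e-18). TGFb1 + IL1b was higher than TGFb1 + DMSO by 1.47 ± 0.112 (edgeR adjusted p = 1.43e-15), which is 2.76-fold. Against TGFb1 without the solvent the fitted difference was 0.95, which is 1.93-fold. CHIR itself left no difference past the threshold, at 0.18 ± 0.098 without TGFb1 (edgeR adjusted p = 0.128) and 0.044 ± 0.13 with it (edgeR adjusted p = 0.827). Without replicate 1 of CHIR the former became 0.30 with an edgeR adjusted p of 0.0153. Hmga2 was the only one of the 5 genes that fell in TGFb1 + DMSO against DMSO.

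Hmga1, which encodes the sister AT-hook protein, had a similar order of groups. Its mean was 12.8 CPM in DMSO, 4.45 CPM in TGFb1, 8.48 CPM in TGFb1 + IL1b and 53.3 CPM in TGFb1 + TNF, and it rose with TNF by a log2 fold change of 3.51 ± 0.132 (edgeR adjusted p = 2.23e-28). The Hmga1 value is uncertain in itself, since 1403 of its 2553 stretches of 50 bases also occur in Hmga1b, which rose by 3.30; for Hmga2 the shared part is 0.768%. Of the HMGA and let-7 list without Hmga2, chosen with earlier results known, 9 genes were tested, Hmga1 and Hmga1b included. With TNF 7 of them rose and 0 fell, with a median log2 fold change of 1.17, where of all tested genes 27.7% rose and 28.8% fell with a median of -0.004. Without Hmga1 and Hmga1b, which share sequence, 5 of 7 rose with a median of 0.98, among them the let-7 targets Arid3b (1.37 ± 0.395, edgeR adjusted p = 0.0028) and Plagl1 (1.49 ± 0.108, edgeR adjusted p = 3.12e-17). Arid3b went only from 0.534 to 1.45 ± 0.875 CPM (SD, n = 3), under its 4.95 CPM in DMSO. Igf2bp3 of the same list went the other way, from 0.703 to 0.489 CPM, which did not pass the threshold. In TGFb1 + DMSO against DMSO 0 rose and 7 fell, with a median of -1.44, and in TGFb1 + IL1b against TGFb1 + DMSO 5 rose and 0 fell. Without Hmga1 and Hmga1b these counts were 5 of 7 falling with TGFb1 and 3 of 7 rising with IL1b. Of all tested genes 31.3% fell in the former contrast and 19.6% rose in the latter. Lin28b, which encodes a blocker of let-7 processing, had 0 counts in all groups.

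Abcb1a (ENSMUSG00000040584, GRCm38 chr5:8660077-8748575, plus strand) went from nearly no reads in the solvent control to its highest level with TNF. In DMSO it had 1, 2 and 2 counts, which are 0.0355, 0.0703 and 0.0849 CPM, and in CHIR it was at 0.297, 0.681 and 0.292 CPM. It was at 13.9, 18.3 and 18.1 CPM in TGFb1, at 10.5, 10.4 and 11.1 CPM in TGFb1 + DMSO and at 4.51, 4.33 and 5.44 CPM in TGFb1 + CHIR. It was at 79.9, 77.3 and 73.6 CPM in TGFb1 + IL1b and at 253, 237 and 244 CPM in TGFb1 + TNF. No neighbouring groups overlapped, and the order from low to high was DMSO, CHIR, TGFb1 + CHIR, TGFb1 + DMSO, TGFb1, TGFb1 + IL1b and TGFb1 + TNF. The TNF mean of 245 ± 7.97 CPM (SD, n = 3) was 14.6 times that in TGFb1 and 3.18 times that in TGFb1 + IL1b.

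The pump gene rose with TGFb1 and with IL1b, and fell with CHIR where TGFb1 was present. TGFb1 + DMSO was higher than DMSO by a log2 fold change of 7.37 ± 0.25 (edgeR adjusted p = 7.92e-31), a ratio of 171 in CPM with an exact 95% interval of 72.9 to 527 that covers counting error only, as DMSO held 5 counts in all. TGFb1 + IL1b was higher than TGFb1 + DMSO by 2.88 ± 0.081 (edgeR adjusted p = 1.24e-32), which is 7.37-fold, and against TGFb1 without the solvent the fitted difference was 2.20, which is 4.60-fold. TGFb1 + CHIR was lower than TGFb1 + DMSO by -1.11 ± 0.112 (edgeR adjusted p = 4.73e-12). Without TGFb1, CHIR was higher than DMSO by 2.77 ± 0.569 (edgeR adjusted p = 5.75e-05), from 5 to 32 counts, a ratio of 6.94 with an exact 95% interval of 2.68 to 22.8. Abcb1a entered this test only through its counts in other groups, as it did not pass the filter on the CHIR and DMSO libraries alone. TGFb1 + CHIR was higher than CHIR by 3.49 ± 0.217 (edgeR adjusted p = 5.55e-20). The CHIR effect differed with TGFb1, with an interaction of -3.88 ± 0.565 on the log2 scale (edgeR adjusted p = 1.09e-07).

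Abcb1b, the second mouse P-glycoprotein gene, lies 49.6 kb away and had smaller folds. Its mean was 22.6 CPM in DMSO, 32.0 CPM in TGFb1, 27.4 CPM in TGFb1 + DMSO, 14.7 CPM in TGFb1 + CHIR, 57.8 CPM in TGFb1 + IL1b and 104 CPM in TGFb1 + TNF. It rose with TNF by a log2 fold change of 1.65 ± 0.0703 (edgeR adjusted p = 1.76e-26), rose with IL1b by 1.10 ± 0.0712 (edgeR adjusted p = 1.47e-18) and fell with CHIR on TGFb1 by -0.85 ± 0.0806 (edgeR adjusted p = 7.38e-13). Of the stretches of 50 bases in Abcb1a 17.6% recur in another gene, 889 of those 961 in Abcb1b, so the split of reads between these genes is uncertain. Summed, the pair rose by 0.82 in TGFb1 + DMSO against DMSO and by 1.85 with IL1b, fell by 0.92 with CHIR on TGFb1, and had an interaction of -0.80. The summed pair did not pass the threshold for CHIR alone (-0.11, edgeR adjusted p = 0.191) or for TGFb1 + CHIR against CHIR (0.014, edgeR adjusted p = 0.883). Abcb4, which encodes a related phospholipid pump, stayed at or below 0.11 CPM in the mean of every group.

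The ABC transporter list without Abcb1a moved in both directions, as all tested genes did. Of 23 tested, Abcb1b included, 6 rose and 10 fell with TNF, where 27.7% of all tested genes rose and 28.8% fell. In TGFb1 + DMSO against DMSO 7 rose and 11 fell, where 30.7% of all rose and 31.3% fell. With IL1b 4 rose and 6 fell, where 19.6% of all rose and 19.8% fell. These counts are not read as particular to the list. With TNF the cholesterol exporter gene Abca1 fell by 1.71 on the log2 scale (SE 0.0547, edgeR adjusted p = 7.50e-32) and Abca9 fell by 1.70 (SE 0.217, edgeR adjusted p = 1.90e-09). Abca8a rose by 2.84 ± 0.449 (edgeR adjusted p = 1.22e-05), but from 0.291 to 1.93 CPM, far under its 78.8 CPM in DMSO.

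**Figure D2:**
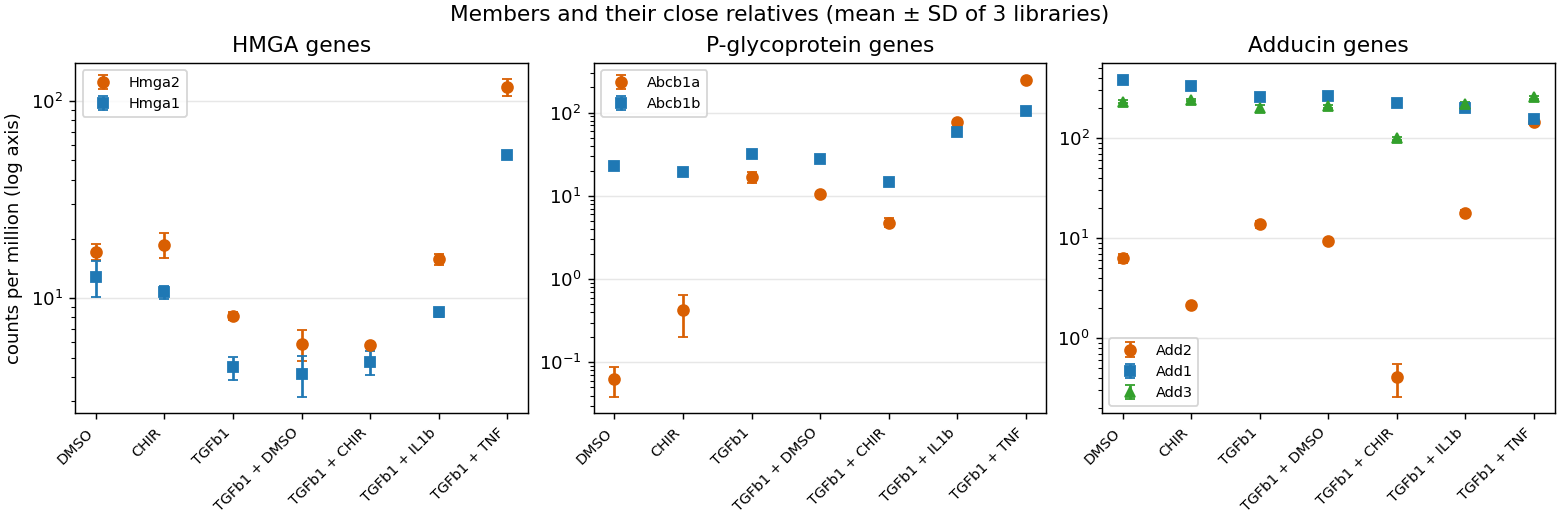
Levels in CPM (log axis), as mean ± SD of 3 libraries, of Hmga2, Abcb1a and Add2 beside their close relatives in the 7 groups. Hmga1 has a shape like that of Hmga2, Abcb1b runs from 14.7 to 104 CPM while Abcb1a starts below 0.1 CPM in DMSO, and Add1 and Add3 stay between 99.7 and 382 CPM.

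Prg4 (ENSMUSG00000006014, GRCm38 chr1:150449412-150466165, minus strand) had the largest TNF to TGFb1 ratio of the 5 genes. It was at 1.49, 3.16 and 2.42 CPM in DMSO, at 2.27, 2.84 and 1.80 CPM in CHIR and at 1.22, 1.95 and 1.72 CPM in TGFb1 + CHIR. It was at 8.03, 7.31 and 8.64 CPM in TGFb1 and at 7.53, 6.15 and 6.91 CPM in TGFb1 + DMSO. It was at 63.6, 65.3 and 72.0 CPM in TGFb1 + IL1b and at 267, 231 and 247 CPM in TGFb1 + TNF. The first 3 groups overlapped at the bottom, both TGFb1 groups without an inhibitor or second cytokine overlapped above them, and the IL1b and TNF libraries formed separate steps. The TNF mean of 248.6 ± 17.9 CPM (SD, n = 3) was 31.1 times that in TGFb1, 3.71 times that in TGFb1 + IL1b and 105 times that in DMSO. Per kb of exon, Prg4 was also the highest of the 5 in the TNF libraries, at 58.1 CPM per kb against 44.6 for Abcb1a, 17.4 for Hmga2, 14.2 for Add2 and 6.91 for Dhrs9.

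Lubricin message rose with TGFb1 and with IL1b and fell when CHIR was added to TGFb1. TGFb1 + DMSO was higher than DMSO by a log2 fold change of 1.60 ± 0.17 (edgeR adjusted p = 1.92e-09), and TGFb1 + IL1b was higher than TGFb1 + DMSO by 3.32 ± 0.111 (edgeR adjusted p = 1.79e-20). For IL1b against TGFb1 without the solvent the fitted difference was 3.08. TGFb1 + CHIR was lower than TGFb1 + DMSO by -2.05 ± 0.192 (edgeR adjusted p = 3.55e-10). Without TGFb1, CHIR differed from DMSO by 0.056 ± 0.214 (edgeR adjusted p = 0.866), and the interaction was -2.10 ± 0.296 (edgeR adjusted p = 9.00e-07). TGFb1 + CHIR against CHIR gave -0.51 ± 0.241, which missed the threshold in edgeR (adjusted p = 0.0669) and passed it in DESeq2 (-0.52, adjusted p = 0.0348).

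Mesothelial cells and chondrocytes can also make lubricin, and the part of such cells in the Prg4 levels was not tested. The chondrocyte and synovial markers summed to 3.54 CPM in TGFb1 + TNF and 5.45 CPM in TGFb1, and 4 of 5 had counts in each group, with Acan at 0. Among them Col2a1 was at 2.96 CPM in TGFb1 and 1.58 CPM in TGFb1 + TNF and Matn3 at 1.81 and 0.152 CPM, while Clic5 was at 0.585 CPM in TGFb1, 0.974 CPM in TGFb1 + IL1b and 1.71 CPM in TGFb1 + TNF. The mesothelial markers summed to 17.3 CPM in TGFb1 + TNF, 31.2 CPM in TGFb1 + IL1b and 29.5 CPM in TGFb1, with 2 or 3 of the 5 having counts. Upk3b and Lrrn4 were at 0 in these 3 groups, Msln had 1 count in them, and Wt1 supplied most of the sum. Of 12 other tested genes of the lubricin and hyaluronan list, 5 rose and 4 fell with TNF, with a median log2 fold change of 0.42. Of all tested genes 27.7% rose and 28.8% fell with TNF. With IL1b 5 of the list rose and 4 fell, where 19.6% of all rose and 19.8% fell. In TGFb1 + DMSO against DMSO 6 rose and 5 fell, where 30.7% of all rose and 31.3% fell. Tnfaip6, whose product links proteins to hyaluronan, rose with TNF by 3.22 ± 0.0997 (edgeR adjusted p = 2.06e-32) and with IL1b by 2.55 ± 0.10 (edgeR adjusted p = 4.54e-27). Has1, a hyaluronan synthase gene, rose with TNF by 2.35 ± 0.231 (edgeR adjusted p = 9.10e-13), from 1.83 to 9.90 CPM. Has2, the synthase gene with the highest level in TGFb1, went the other way, from 223.5 to 119.6 CPM. Cemip, whose product degrades hyaluronan, fell by 3.49 (SE 0.0671, edgeR adjusted p = 3.65e-39).

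Dhrs9 (ENSMUSG00000027068, GRCm38 chr2:69380445-69404533, plus strand) was, per kb of exon, the lowest of the 5 genes in the TNF libraries, and its IL1b level came closest to its TNF level. It was at 2.70, 2.07 and 2.55 CPM in DMSO, at 1.09, 3.87 and 2.58 CPM in TGFb1 and at 2.02, 2.15 and 1.95 CPM in TGFb1 + DMSO. It was at 7.50, 7.91 and 8.65 CPM in CHIR and at 7.12, 5.57 and 6.66 CPM in TGFb1 + CHIR. It was at 17.6, 21.6 and 20.4 CPM in TGFb1 + IL1b and at 27.6, 29.9 and 31.2 CPM in TGFb1 + TNF. The DMSO, TGFb1 and TGFb1 + DMSO libraries overlapped, and the TGFb1 + CHIR, CHIR, IL1b and TNF libraries followed in that order with no overlap. The TNF mean of 29.6 ± 1.80 CPM (SD, n = 3) was 1.49 times that in TGFb1 + IL1b and 11.8 times that in TGFb1, where the libraries spread widely (2.51 ± 1.39 CPM, SD, n = 3).

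Dhrs9 rose with CHIR and with IL1b, and no difference with TGFb1 passed the threshold. TGFb1 + IL1b was higher than TGFb1 + DMSO by a log2 fold change of 3.31 ± 0.198 (edgeR adjusted p = 9.13e-15). Against TGFb1 without the solvent the fitted difference was 2.97. CHIR was higher than DMSO by 1.78 ± 0.208 (edgeR adjusted p = 1.72e-08) and TGFb1 + CHIR higher than TGFb1 + DMSO by 1.72 ± 0.219 (edgeR adjusted p = 9.52e-08), with an interaction of -0.063 (edgeR adjusted p = 0.902). TGFb1 + DMSO against DMSO gave -0.19 ± 0.248 (edgeR adjusted p = 0.52), and TGFb1 + CHIR against CHIR gave -0.26 ± 0.185 (edgeR adjusted p = 0.229). Dhrs9 was the only one of the 5 genes that rose in TGFb1 + CHIR against TGFb1 + DMSO.

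Other genes of retinoid metabolism and response moved in both directions, as all tested genes did. Of 21 tested, 5 rose and 10 fell with TNF, with a median log2 fold change of -0.43, where 27.7% of all tested genes rose and 28.8% fell. With IL1b 5 rose and 6 fell, where 19.6% of all rose and 19.8% fell. In TGFb1 + DMSO against DMSO 9 rose and 8 fell, where 30.7% of all rose and 31.3% fell. These counts are not read as particular to the list. With TNF, Dhrs3, whose product reduces retinal to retinol, fell by 2.72 (SE 0.0559, edgeR adjusted p = 1.01e-38), from 289.6 to 46.0 CPM, and Stra6, the retinol uptake receptor gene, fell by 2.43 (SE 0.115, edgeR adjusted p = 1.50e-24), from 26.0 to 5.03 CPM. Aldh1a1 and Adh1, which encode enzymes that oxidise retinal and retinol, fell from 66 to 5 counts and from 37 to 2 counts, ratios of 14 and 19.6 in CPM with exact 95% intervals of 5.71 to 44.5 and 5.06 to 168. Both had been far higher in DMSO, at 24.9 and 74.5 CPM.

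Add2 (ENSMUSG00000030000, GRCm38 chr6:86028681-86124409, plus strand) was highest with TNF and lowest where TGFb1 and CHIR were combined. It was at 5.75, 6.12 and 7.01 CPM in DMSO, at 2.12, 2.04 and 2.19 CPM in CHIR and at 13.4, 12.9 and 14.9 CPM in TGFb1. It was at 8.89, 9.19 and 9.74 CPM in TGFb1 + DMSO, at 0.537, 0.429 and 0.245 CPM in TGFb1 + CHIR, at 16.3, 18.1 and 18.9 CPM in TGFb1 + IL1b and at 152, 135 and 144 CPM in TGFb1 + TNF. No neighbouring groups overlapped, with TGFb1 + CHIR lowest, then CHIR, DMSO, TGFb1 + DMSO, TGFb1, TGFb1 + IL1b and TGFb1 + TNF. The TNF mean of 144 ± 8.55 CPM (SD, n = 3) was 10.5 times that in TGFb1, 8.08 times that in TGFb1 + IL1b, 22.8 times that in DMSO and 356 times that in TGFb1 + CHIR.

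Add2 rose with TGFb1 in the absence of CHIR and fell with TGFb1 in its presence. TGFb1 + DMSO was higher than DMSO by a log2 fold change of 0.63 ± 0.103 (edgeR adjusted p = 5.98e-07), whereas TGFb1 + CHIR was lower than CHIR by -2.28 ± 0.247 (edgeR adjusted p = 1.34e-11). CHIR was lower than DMSO by -1.50 ± 0.136 (edgeR adjusted p = 1.56e-13), TGFb1 + CHIR was lower than TGFb1 + DMSO by -4.40 ± 0.182 (edgeR adjusted p = 1.32e-26), and the interaction was -2.90 ± 0.266 (edgeR adjusted p = 2.75e-13). TGFb1 + IL1b was higher than TGFb1 + DMSO by 0.97 ± 0.09 (edgeR adjusted p = 6.18e-13), which is 1.95-fold, and against TGFb1 without the solvent the fitted difference was 0.38, which is 1.30-fold.

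The other adducin genes had smaller folds. Add1 (alpha-adducin) fell with TNF by 0.79 (SE 0.0419, edgeR adjusted p = 1.38e-22), from 255 to 154 CPM, and Add3 (gamma-adducin) rose by 0.31 ± 0.046 (edgeR adjusted p = 8.23e-08), from 199 to 257 CPM. With CHIR on TGFb1, Add3 fell by 0.997 (SE 0.0478, edgeR adjusted p = 5.49e-24) and Add1 fell by 0.20 (SE 0.0413, edgeR adjusted p = 7.76e-05). The adducin and spectrin membrane skeleton list without Add2 had 18 tested genes, Add1 and Add3 included. With TNF 5 rose and 9 fell, with a median log2 fold change of -0.25, where 27.7% of all tested genes rose and 28.8% fell. With IL1b 5 rose and 5 fell, where 19.6% of all rose and 19.8% fell. In TGFb1 + DMSO against DMSO 5 rose and 9 fell, where 30.7% of all rose and 31.3% fell. Tmod1, which encodes a cap of actin filament ends, rose with TNF by 1.97 ± 0.333 (edgeR adjusted p = 1.21e-06), while Ank3, an ankyrin gene, fell by 1.37 (SE 0.153, edgeR adjusted p = 1.45e-09). All 6 erythroid markers, among them the haemoglobin genes, had 0 counts in the TNF libraries, and their summed mean was at most 0.174 CPM in any group.

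Set side by side, the 5 genes shared the order TNF above IL1b above the other TGFb1 groups, and differed in how they stood to TGFb1 and CHIR. TNF against TGFb1 was taken as the contrast behind the choice of genes. Its fitted folds were 29.98 for Prg4, 14.01 for Abcb1a, 13.8 for Hmga2, 11.2 for Dhrs9 and 10.1 for Add2. They placed the genes, in that order, at ranks 37, 75, 77, 113 and 126 among all 16197 tested genes. Among the 10766 genes averaging 2 log2 CPM or more the ranks were 4, 9, 10, 17 and 20. In that contrast 56.6% of all tested genes passed the threshold of 0.05 on the adjusted p, 27.7% higher and 28.8% lower, and nothing is read from the members against it. Against TGFb1 + IL1b, where 47.6% of genes passed, the log2 fold changes of TGFb1 + TNF were 2.95 for Add2, 2.84 for Hmga2, 1.83 for Prg4, 1.61 for Abcb1a and 0.51 for Dhrs9. The TNF and IL1b levels were thus farthest apart for Add2 and Hmga2 and closest for Dhrs9.

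Among the tested contrasts, IL1b was the one in which all 5 genes moved one way. In TGFb1 + IL1b against TGFb1 + DMSO 5 of 5 rose, where 39.3% of all tested genes passed, 19.6% higher and 19.8% lower; this contrast does not separate IL1b from the absence of the solvent. In TGFb1 + DMSO against DMSO 3 rose and 1 fell, where 62.0% of genes passed, 30.7% higher and 31.3% lower. In TGFb1 + CHIR against CHIR 1 rose and 2 fell, where 66.2% passed, 33.8% higher and 32.3% lower. CHIR against DMSO had 2 higher and 1 lower, where 44.8% passed, 22.1% higher and 22.7% lower. Abcb1a, 1 of the higher, did not pass the filter on low counts in these libraries alone. TGFb1 + CHIR against TGFb1 + DMSO had 1 higher and 3 lower, where 43.3% passed, 20.8% higher and 22.5% lower. The interaction of CHIR and TGFb1 was lower for 3 of 5, where 41.2% of genes passed and 20.3% were lower. Counts of 3 or 4 of 5 are not read as particular to these genes.

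**Figure D3:**
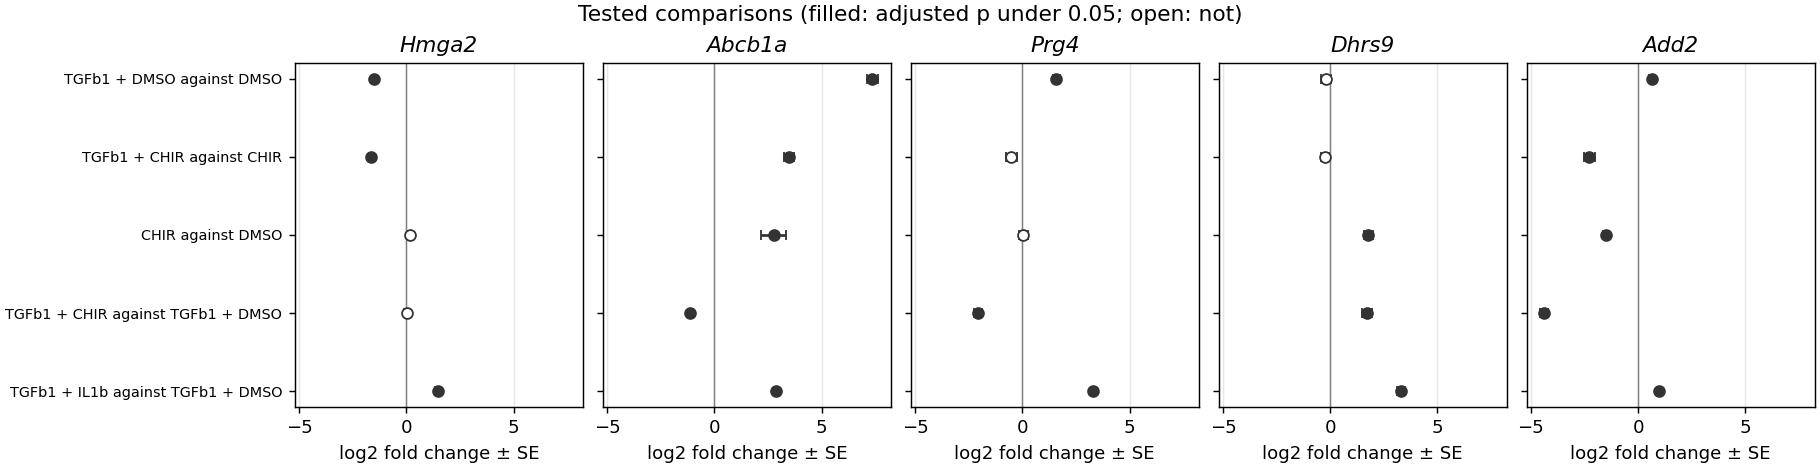
Fitted log2 fold change ± SE of each gene in 5 contrasts that compare neither the TGFb1 + TNF nor the TGFb1 group. The spread behind SE and p was estimated from all 21 libraries, those groups included. Filled points have an edgeR adjusted p under 0.05. Every gene is higher in TGFb1 + IL1b against TGFb1 + DMSO, while TGFb1 + CHIR against TGFb1 + DMSO runs from -4.40 for Add2 to 1.72 for Dhrs9.

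Most genes of the TNF receptor and NF-kB list rose with each cytokine. Of its 31 tested genes, 22 rose and 6 fell with TNF, where of all tested genes 27.7% rose and 28.8% fell, and 24 rose and 4 fell with IL1b, where 19.6% rose and 19.8% fell. The median log2 fold change of the list was 0.81 in each, against -0.004 for all genes with TNF and 0 with IL1b. In TGFb1 + DMSO against DMSO 10 rose and 17 fell, where 30.7% of all tested genes rose and 31.3% fell. The chemokine gene Ccl5 rose with TNF by 2.92 ± 0.206 (edgeR adjusted p = 2.06e-12) and the chemokine gene Cxcl1 by 3.10 ± 0.284 (edgeR adjusted p = 1.11e-08). Cxcl1 was at 0.818 CPM in TGFb1, 7.55 CPM with TNF and 105 CPM with IL1b, so its order of the 2 cytokines was the reverse of that of the 5 genes. It was not alone in this. In TGFb1 + TNF against TGFb1 + IL1b, 15 of the 31 genes were higher and 15 lower, where 47.6% of all tested genes passed. Traf1, which encodes a signalling adaptor of TNF receptors, went from 1 to 240 counts with TNF, a ratio of 226 in CPM with an exact 95% interval of 40.2 to 8970. With IL1b it had 26 counts against 0 in TGFb1 + DMSO, at least 8.46-fold higher when set against 3 counts over the group.

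**Figure D4:**
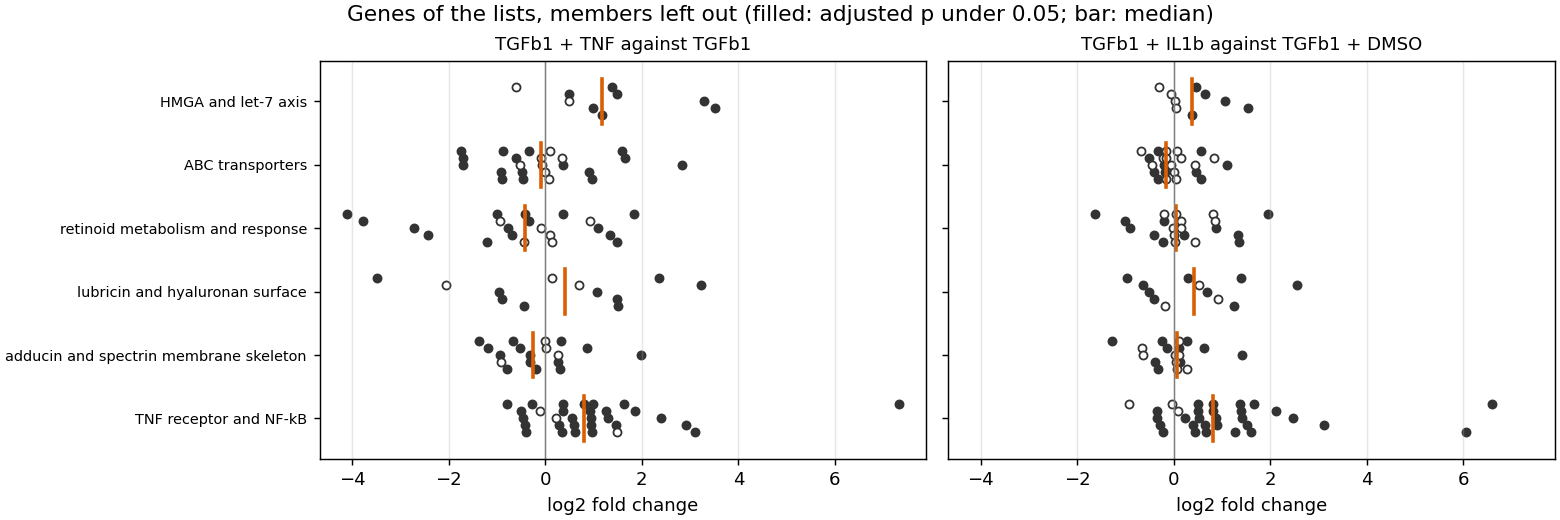
Log2 fold change of each tested gene of the 6 lists, the 5 genes left out, for TNF against TGFb1 and for IL1b against TGFb1 + DMSO; filled points have an edgeR adjusted p under 0.05 and bars are medians. The medians with TNF are 1.17 for the HMGA and let-7 axis, 0.81 for TNF receptor and NF-kB genes, 0.42 for lubricin and hyaluronan genes, and below 0 for the other lists.

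Genes whose group means followed each member most closely were found by Pearson's r of log2 CPM over the 7 group means, among 7437 genes with a range of at least 1 log2 unit. With 7 points that share libraries this is a description. Closest to Hmga2 were Ndst3, a heparan sulfate sulfotransferase gene (r = 0.995), Ralgapa2 (r = 0.99) and Hmga1 (r = 0.988). Closest to Abcb1a were Pi4k2b (r = 0.999), Tsg101 (r = 0.997) and Timp1 (r = 0.997), the last of which encodes an inhibitor of matrix metalloproteinases and had means of 79.3 CPM in DMSO and 1376 CPM in TGFb1 + TNF. Closest to Prg4 were Ccl5 (r = 0.990), Tpsab1, a mast cell tryptase gene at 0.295 CPM in TGFb1 and 6.60 CPM in TGFb1 + TNF (r = 0.990), and Tor3a (r = 0.989). Closest to Dhrs9 were Stc2 (r = 0.986), Tsc22d3 (r = 0.984) and Col4a4 (r = 0.979), and closest to Add2 were the nucleoside transporter gene Slc29a1 (r = 0.997), Ly6e (r = 0.990) and Nemp1 (r = 0.983). Between members r ran from 0.35 for Hmga2 with Abcb1a to 0.88 for Prg4 with Add2, so no pair of the 5 had as close a pattern as these.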

How the data were processed

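The authors deposited raw counts per gene for 21 stranded total RNA libraries; the sources used here do not give the aligner, the counter, their versions or the strand setting, and builds GRCm38 and GRCh38 stand in the submitters' processing notes without a role. All 21 single-library tables equalled their column of the joint table. Of 52636 Ensembl IDs, 52489 were found in GENCODE M21 (GRCm38), the source of symbols and positions, and 147 without a symbol held 0.00736% of counts.

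CPM are counts per 1000000 of the library total. Folds came from edgeR 4.0.16 (R 4.3.3): filterByExpr, TMM (factors 0.963 to 1.048), 1 coefficient per group over all 21 libraries, robust quasi-likelihood F-tests, and Benjamini-Hochberg adjustment over 16197 genes, with a threshold of 0.05. SE is the log2 fold change divided by the square root of F. The fit was tested on simulated data. The 5 genes, the 6 lists and the markers were chosen with earlier results of these data known. Up to 4 genes per list and contrast with the largest called folds, and the 3 closest in pattern, could be named; relatives and neighbours of the 5 genes are named besides. Ratios resting on few counts have exact (Clopper-Pearson) intervals, which cover counting error only. Alternatives were DESeq2 1.42.0, limma voom 3.58.1, other size factors and filters, other controls, Abcb1a and Abcb1b summed, and each library left out. For tested contrasts a fit to only the groups compared was a further alternative.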

Additional observations from a re-analysis of the deposited data

Results flagged for a closer look

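For 3 of the 5 genes the effect of CHIR differed between cells with and without TGFb1, by edgeR's test of the difference itself. For Abcb1a the CHIR effect was 2.77 without and -1.11 with TGFb1 on the log2 scale, a difference of -3.88 (adjusted p = 1.09e-07), which was between -4.11 and -3.33 with 1 library left out and -0.80 when Abcb1a and Abcb1b were summed. For Prg4 it was 0.056 without and -2.05 with TGFb1, a difference of -2.10 (adjusted p = 9.00e-07), between -2.40 and -1.84 with 1 library left out. For Add2 it was -1.50 without and -4.40 with TGFb1, a difference of -2.90 (adjusted p = 2.75e-13), between -3.20 and -2.68 with 1 library left out. Ly6a and Ly6c1 together were lowest in the same TGFb1 + CHIR group, at 8.23 CPM, and their part in these differences was not tested.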

How the results depend on the processing

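Of 525 values of the 5 genes under the alternatives, 506 were kept. Abcb1a in CHIR against DMSO had no value from the fit to those groups alone, where it did not pass the filter. In tested contrasts a value was kept if its direction and its side of the threshold stayed. In contrasts without a test it was kept if its direction stayed and it moved by less than the SD between libraries, and 4 values moved by more. Counts of genes past the threshold stayed within 1.5 times in every contrast. Summing Abcb1a and Abcb1b turned CHIR against DMSO to -0.11 and left 0.014 for TGFb1 + CHIR against CHIR. The latter contrast for Prg4 passed the threshold with DESeq2 (-0.52), without a filter (-0.49) and with a filter of 1 CPM (-0.54). With TGFb1 + DMSO as control the TNF log2 fold changes were 4.31 for Hmga2, 4.49 for Abcb1a, 5.15 for Prg4, 3.82 for Dhrs9 and 3.92 for Add2. Leaving out 1 library turned the sign of 4 differences that had not passed: CHIR against DMSO for Prg4 (-0.20 to 0.35), TGFb1 + CHIR against TGFb1 + DMSO for Hmga2 (-0.053 to 0.19), and the interaction for Hmga2 (-0.26 to 0.013) and Dhrs9 (-0.15 to 0.049). It also moved 2 past the threshold, CHIR against DMSO for Hmga2 (0.11 to 0.30) and TGFb1 + CHIR against CHIR for Prg4 (-0.65 to -0.29). Genes with a likeness of at least 0.95 numbered 17, 236, 115, 6 and 35 for Hmga2, Abcb1a, Prg4, Dhrs9 and Add2 by Pearson's r and 40, 403, 82, 12 and 158 by Spearman's rho. The TNF to TGFb1 value of Dhrs9 ran from 3.10 to 4.01 with 1 library left out. The causes were not tested. No paired analysis was possible because the groups share no replicate numbers in the labels. At the lowest levels, Abcb1a in DMSO and Add2 in TGFb1 + CHIR, counting error limits the values.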

Other observations

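The nearest tested genes on either side of each member were compared in TGFb1 + TNF against TGFb1. Beside Hmga2, the gene 4930471E19Rik at 156 kb rose by a log2 fold change of 3.54 ± 0.459 (edgeR adjusted p = 2.86e-09), from 0.303 to 3.76 CPM, and Llph at 129 kb rose by 0.92 ± 0.122 (edgeR adjusted p = 5.12e-09). Beside Add2, Tgfa at 70.8 kb, which encodes a ligand of the EGF receptor, rose by 1.62 ± 0.481 (edgeR adjusted p = 0.00338), from 0.169 to 0.568 CPM. Beside Dhrs9, Spc25 at 174 kb rose by 0.48 ± 0.0825 (edgeR adjusted p = 1.75e-06), and Lrp2, which encodes the endocytic receptor megalin and lies 19.8 kb away, gave 0.28 ± 0.172 (edgeR adjusted p = 0.171). Beside Prg4, Odr4 at 56.3 kb gave 0.047 ± 0.0679 (edgeR adjusted p = 0.583). Beside Abcb1a, Slc25a40 at 205 kb rose by 0.77 ± 0.137 (edgeR adjusted p = 3.545e-06), and Abcb1b is described above. Gm19265 beside Add2 (0.71 ± 0.81) and Ska2l-ps beside Prg4 (-0.42 ± 0.509) did not pass the threshold. Of all tested genes 27.7% rose in this contrast. Of these neighbours, 4930471E19Rik was the one with a fold near that of its member.

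Genes on the opposite strand share exon bases with some members, and reads of overlapping genes cannot be told apart where the strand setting of the counting is unknown. Prg4 shares 204 exon bases with Tpr, a nuclear pore gene at 360.3 CPM in TGFb1 and 543 CPM in TGFb1 + TNF, 218% of Prg4. The lowest group mean was 349.3 CPM for Tpr and 1.63 CPM, in TGFb1 + CHIR, for Prg4. The part of Tpr reads in the Prg4 levels was not tested. The predicted gene Gm42686 beside Abcb1a went from 0.0168 to 0.389 CPM, which is 0.159% of the Abcb1a level in TGFb1 + TNF. Gm44089 beside Add2 went from 0.0529 to 0.493 CPM, 0.343% of Add2, and 1700006J14Rik beside Hmga2 went from 0.0688 to 0.494 CPM, 0.42% of Hmga2.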
